A study of Oryzias latipes with 18 samples.

Results

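Testes of medaka (Oryzias latipes) that carried only an ancestral exposure were compared with testes of medaka that carried only an exposure of their own. The first group, the BPA lineage without PFOS, descended from ancestors that met bisphenol A (BPA) at 10 µg/L as embryos, 4 generations earlier, and lived in water with PFOS at 0 mg/L. The second group, the exposed control lineage, had no BPA in its ancestry and was kept for 21 days with perfluorooctane sulfonate (PFOS) at 0.02 mg/L. The same 21 days are given for all 18 libraries of the series, those at 0 mg/L included. The groups were defined by their labels, and the comparison was chosen with earlier results of these data known. They held 3 biological replicates each, 6 of the 18 testis libraries of the series. The remaining groups were the control lineage without PFOS (unexposed fish of unexposed ancestry, 3 libraries), both lineages at 0.002 mg/L and the BPA lineage at 0.02 mg/L. The question was whether the ancestral and the direct exposure left like testes. The compared groups differ in ancestry and in PFOS at once, so the effects of the 2 cannot be told apart in a difference between them. The labels state neither the age of the fish, nor the strain, nor whether a library held the testes of 1 fish or of several, so p-values measure the spread between these libraries.

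BPA is the monomer of polycarbonate plastics and epoxy resins and binds estrogen receptors. PFOS is a fluorinated surfactant that resists breakdown and binds to blood and liver proteins. The testis of bony fishes is built of cysts, in which Sertoli cells enclose germ cells that divide and mature in step. Leydig cells between the tubules make androgens, and contractile myoid cells and blood vessels lie in the wall and the interstitium.

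Values below are normalized reads, gene read counts divided by a size factor per library. Reads ran from 25.4 to 27.5 M in the BPA lineage without PFOS and from 23.7 to 32.6 M in the exposed control lineage, within the range of 23.7 to 47.7 M over all 18. Of 22941 genes, 18792 had a mean of at least 10 normalized reads and were tested. Control lineage PFOS 0.002 replicate 2 was left out of the fit: the egg-coat gene zp3f.2 reached 139400 normalized reads in that library and at most 624 in the other 17. All 6 libraries compared held transcripts of germ cells and Sertoli cells and of the male-determining gene. The germ-cell helicase ddx4 had 35970, 43010 and 28640 normalized reads in the BPA lineage without PFOS and 42750, 38040 and 49660 in the exposed control lineage. The Sertoli-cell gene gsdf, a growth factor of the fish gonad, ranged from 22840 to 39870 in the same 6, and the male-determining gene dmy from 2042 to 4469. In the library left out, ddx4 had 28210 normalized reads, gsdf 4495 and dmy 488.8, so ddx4 did not set that library apart.

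The groups differed from each other in few genes. In limma on log2(value + 1), 11 genes passed an adjusted p of 0.05, 0.0585% of those tested, with 10 higher and 1 lower in the BPA lineage without PFOS. The same fit called 1927 genes (10.3%) between the BPA lineage without PFOS and the control lineage without PFOS, 806 higher (4.29%) and 1121 lower (5.97%). It called 2409 genes (12.8%) between the exposed control lineage and the control lineage without PFOS, 1155 higher (6.15%) and 1254 lower (6.67%). These last comparisons share their reference libraries, so their calls are not independent of each other. The typical gene, by the median of the absolute log2 difference, stood 0.262 apart in the direct comparison, against 0.446 for the BPA lineage and 0.482 for the exposed control lineage relative to the shared reference. The median standard error was 0.338 in each of the 3.

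A gene that misses the threshold is not thereby shown to be alike, so the interval of each difference was read as well. For 9285 of the 18792 genes (49.4%), the 95% interval of the direct difference lay inside 1 log2 unit on both sides, which bounds the difference below 2-fold. For the other genes the interval reached or passed 1 log2 unit on at least one side. At an unadjusted p under 0.05 there were 1611 genes (8.57%), and for 2808 genes (14.9%) the 3 libraries of one group did not overlap the 3 of the other. The count of 11 was 2 with edgeR and 187 with DESeq2 on the recovered reads, and 3 to 9 when 1 of the 6 libraries was left out. Across libraries, log2 values of the 2 groups correlated at 0.919 to 0.954 (9 pairs), beside 0.944 to 0.96 among the BPA lineage libraries without PFOS and 0.941 to 0.957 among the exposed control libraries. With the control lineage without PFOS, the correlations were 0.87 to 0.951 and 0.866 to 0.947. All libraries share the abundant genes of testis, so these values are high throughout and are a description.

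**Figure D1:**
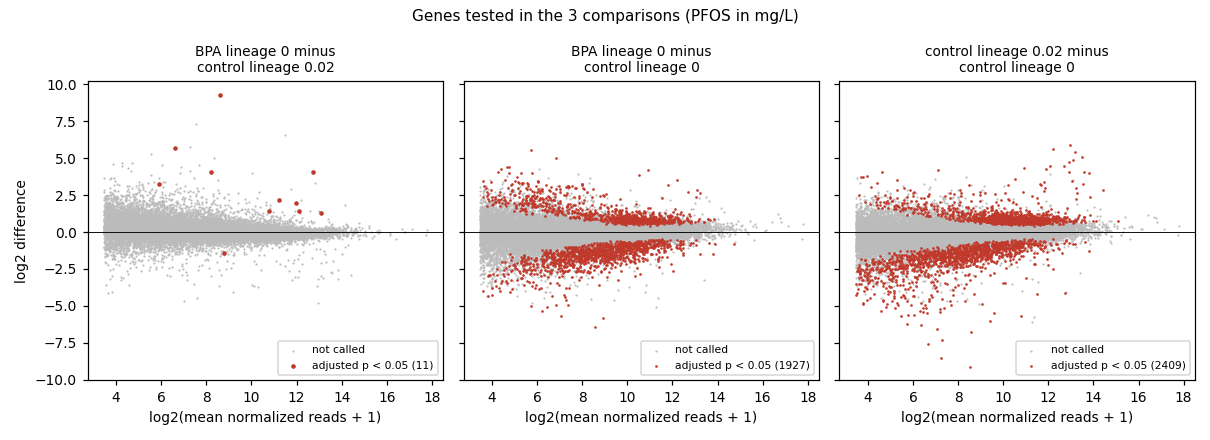
Each point is a gene, with its log2 mean of normalized reads over the 18 libraries on the x axis and its log2 difference in the 17-library fit on the y axis. Red points passed an adjusted p of 0.05. The direct comparison (left) has 11 red points and a narrow cloud, and the comparisons with the shared reference have 1927 and 2409.

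The reference group itself was uneven. Transcripts of gut and kidney were abundant in the control lineage without PFOS: cdh17, a cadherin of the gut lining, stood at 2578, 84.2 and 6201 normalized reads in its replicates 1, 2 and 3, and slc12a3, a salt transporter of the kidney, at 23.6, 68.0 and 31800. Over the 6 libraries compared directly, cdh17 ranged from 10.6 to 195 and slc12a3 from 4.90 to 35.7. Without replicates 1 and 3 together, a fit added after seeing the data, 0 genes were called for the BPA lineage (2431 at an unadjusted p under 0.05; 5395, or 28.7%, with all replicates) and 12 for the exposed control lineage. Each fit then rests on 1 reference library, which is assumed to vary like the others. In the 17-library fit, leaving out single libraries gave 180 to 2776 calls for the BPA lineage and 77 to 3114 for the exposed control lineage. The counts without a library of the reference group were 291 and 84 (replicate 1), 1664 and 1883 (replicate 2) and 978 and 956 (replicate 3). The counts without a library of the other group were 536 (replicate 1) and 180 (replicate 2) for the BPA lineage, and 555 (replicate 1), 3114 (replicate 2) and 77 (replicate 3) for the exposed control lineage.

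Among the 11 genes that differed, the 5 with a name included 3 of the actin cytoskeleton, all higher in the BPA lineage without PFOS. The gene tagln, which encodes the smooth-muscle actin-binding protein transgelin, had 7398, 9962 and 7721 normalized reads there and 3883, 2785 and 2831 in the exposed control lineage. Every library of the first group lay above every library of the second, and the log2 difference was 1.40 ± 0.23 (SE; adjusted p = 0.0467). TPM1, a tropomyosin that runs along actin filaments, had 2080, 3459 and 2668 normalized reads against 1018, 1044 and 918. Its log2 difference was 1.43 ± 0.25 (adjusted p = 0.0467), again with no overlap. The gene actb1, a cytoplasmic beta-actin, had 6740, 8223 and 6410 normalized reads against 2974, 2762 and 2824, a log2 difference of 1.31 ± 0.22 (adjusted p = 0.0467). In bulk tissue, fewer cells of a type and less RNA per cell cannot be told apart.

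The control lineage without PFOS lay between the groups for tagln, at 4898, 4587 and 6189 normalized reads, and for actb1, at 4365, 5865 and 4932. For TPM1 it held 2547, 1685 and 3082, which overlapped the BPA lineage. Relative to it, TPM1 was lower in the exposed control lineage by a log2 difference of -1.25 ± 0.25 (adjusted p = 0.0104), and was 0.18 ± 0.25 in the BPA lineage (adjusted p = 0.671). For actb1 the same differences were -0.81 ± 0.22 (adjusted p = 0.0303) and 0.50 ± 0.22 (adjusted p = 0.154), and for tagln -0.73 ± 0.23 (adjusted p = 0.0488) and 0.68 ± 0.23 (adjusted p = 0.0688). The calls of these 3 genes sat close to the threshold, and all 3 were lost with edgeR. The adjusted p of tagln was 0.063 with edgeR and 0.0433 to 0.25 when a library was left out, while its log2 difference stayed between 1.27 and 1.56.

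Other genes of contractile cells and of the matrix around them had differences of the same sign without passing. Of 49 muscle and connective tissue genes tested, 2 were called higher (TPM1 and tagln) and 0 lower, beside 0.0532% and 0.00532% of all genes. By library, 16 of the 49 were higher in the BPA lineage without PFOS with no overlap and 2 were lower, beside 7.9% and 7.05% of all genes. The median log2 difference of the list was 0.54, beside -0.01 for all genes, and was 0.377 to 0.612 when a library was left out. Relative to the shared reference, the median was -0.11 for the BPA lineage (1 called higher, 2 lower) and -0.72 for the exposed control lineage (0 higher, 8 lower). Of all genes, 4.29% were called higher and 5.97% lower in the first of these, and 6.15% and 6.67% in the second. The summed normalized reads of the list ran from 42546 to 63076 in the BPA lineage without PFOS, from 26819 to 35870 in the exposed control lineage and from 39379 to 53054 in the control lineage without PFOS. The next genes were chosen after their values were seen.

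Smoothelin smtna, a marker of contractile smooth muscle, had 283, 728 and 328 normalized reads in the BPA lineage without PFOS and 170, 69.9 and 108 in the exposed control lineage, a log2 difference of 1.90 ± 0.42 (adjusted p = 0.17). The smooth-muscle myosin heavy chain myh11a had 2534, 2525 and 2945 against 1624, 1010 and 1200, and smooth-muscle actin acta2 had 5960, 6752 and 6911 against 4336, 1389 and 2444. These genes did not overlap between the groups, and their adjusted p was 0.359 and 0.448. Leiomodin lmod1b had 341, 332 and 462 against 249, 119 and 128 (adjusted p = 0.293). The myosin light chain myl9a rested on 1 library, with 348, 7516 and 591 normalized reads against 336, 251 and 252. Among matrix genes, the fibrillar collagen gene col5a2a had 264, 255 and 305 normalized reads against 121, 108 and 117 (adjusted p = 0.351), and col1a2 had 1055, 1294 and 1677 against 804, 872 and 718 (adjusted p = 0.351). The collagen gene col12a1a went the other way, with 147, 93.0 and 89.5 normalized reads against 1859, 1842 and 588, a log2 difference of -3.55 ± 1.29 (adjusted p = 0.489). In the control lineage without PFOS col12a1a had 36.3, 30.0 and 2544, so the libraries of that group lay on both sides.

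**Figure D2:**
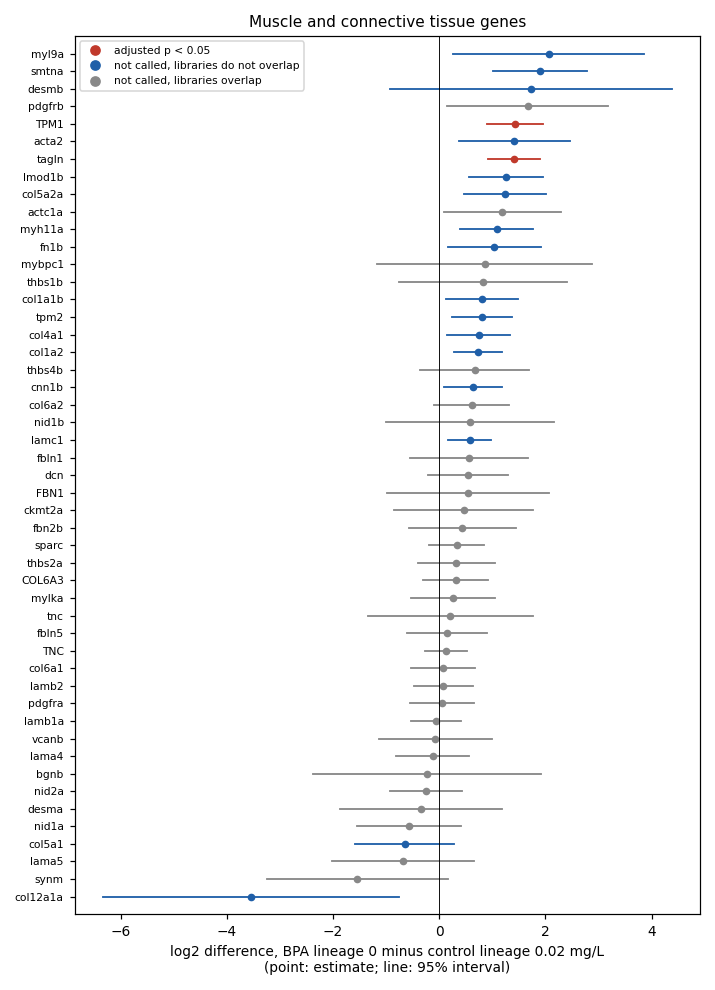
Log2 differences between the BPA lineage at 0 mg/L and the control lineage at 0.02 mg/L for the 49 muscle and connective tissue genes tested, with 95% intervals. The 2 red genes passed the adjusted threshold, 38 of the 49 estimates lie to the right of 0, and col12a1a lies farthest to the left.

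The fourth and the fifth named gene were not of the cytoskeleton. The gene rtn4rl2b encodes a receptor of the Nogo receptor family, known from nerve cells. It had 218, 165 and 96.3 normalized reads in the BPA lineage without PFOS and 8.81, 17.7 and 22.9 in the exposed control lineage, a log2 difference of 3.22 ± 0.57 (adjusted p = 0.0467). The control lineage without PFOS, at 21.0, 27.5 and 18.9, was close to the exposed control lineage (log2 difference -0.51 ± 0.57, adjusted p = 0.566) and below the BPA lineage (2.72 ± 0.57, adjusted p = 0.0105). The gene hsdl1, a relative of the hydroxysteroid dehydrogenases, was the 1 gene called lower in the BPA lineage without PFOS. It had 273, 207 and 231 normalized reads against 552, 567 and 831, a log2 difference of -1.44 ± 0.25 (adjusted p = 0.0467). Its level in the control lineage without PFOS was 408, 315 and 376, between the groups. The adjusted p of rtn4rl2b was 0.0808 with edgeR and 0.0803 to 0.257 when a library was left out. With edgeR, TMM scaling or all 18 libraries, 0 genes were called lower, so hsdl1 lost its call. It was also lost without replicate 2 or replicate 3 of either group.

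The remaining 6 genes, all higher in the BPA lineage without PFOS, have no name in the deposited table. Of these, ENSORLG00000017799 and ENSORLG00000030246 had log2 differences of 2.17 ± 0.38 and 1.98 ± 0.33 (adjusted p = 0.0467 for both). ENSORLG00000000970 had 1212, 631 and 536 normalized reads in the BPA lineage without PFOS, from 2822 reads in all, and 0, 0.706 and 0 in the exposed control lineage, from 1 read in all. The ratio of the normalized sums was 2990, with an exact 95% interval of 536 to 118000 that covers counting error only (adjusted p = 9.83e-05). The other groups held 181, 243 and 47.0 in the control lineage without PFOS, 66.1 and 33.5 in the control lineage at 0.002 mg/L, and 570, 780 and 1250 in the BPA lineage at 0.002 mg/L. The BPA lineage at 0.02 mg/L had 493, 495 and 35.0, so all libraries of the other groups lay above the exposed control lineage. ENSORLG00000007279 had 8892, 7110 and 8431 normalized reads against 483, 415 and 593, a log2 difference of 4.04 ± 0.47 (adjusted p = 0.00284). Here the BPA lineage without PFOS was level with the control lineage without PFOS, at 13580, 14410 and 3151 (log2 difference -0.07 ± 0.47), and the exposed control lineage was lower than both. ENSORLG00000000970 and ENSORLG00000007279 passed under each alternative that was run. ENSORLG00000026074 had 45.5, 260 and 73.7 normalized reads against 2.94, 0.706 and 0 (adjusted p = 0.00435). Its log2 difference from the control lineage without PFOS was 0.23 ± 0.74 in the BPA lineage. ENSORLG00000011856 had 1002, 790 and 806 against 49.9, 57.9 and 48.7 (adjusted p = 0.0115). Its log2 difference from the control lineage without PFOS was 2.71 ± 0.58 in the BPA lineage.

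**Figure D3:**
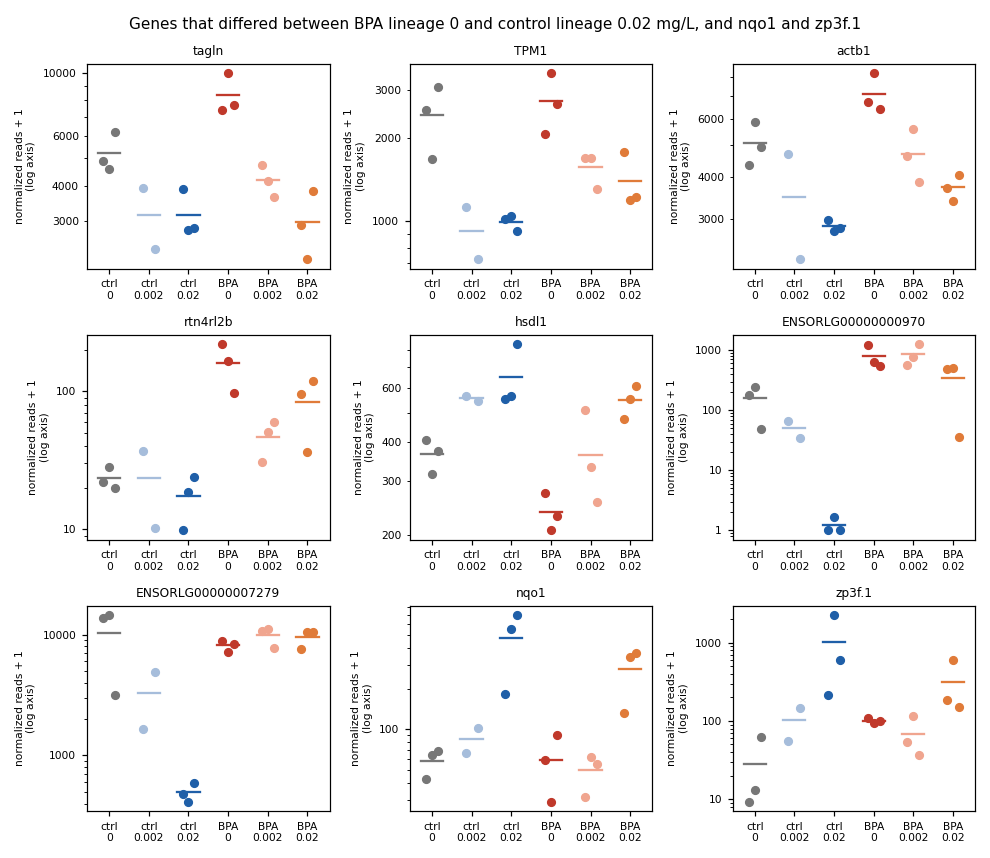
Normalized reads plus 1 (log axis) of 7 genes that differed between the BPA lineage at 0 mg/L (red) and the control lineage at 0.02 mg/L (dark blue), and of nqo1 and zp3f.1, which did not pass, in each library. Horizontal lines are group means, PFOS is in mg/L, and the control lineage at 0.002 mg/L has 2 points because 1 library was left out. For tagln, actb1 and rtn4rl2b the red points lie above all dark blue points and above the 3 grey points of the control lineage at 0 mg/L.

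Libraries outside the groups compared directly gave a second look at lineage, though the same fit used them to estimate the spread. Between the BPA lineage and the control lineage at 0.002 mg/L, where both had PFOS, all 11 genes had the same sign as in the direct comparison. Over all 18792 genes 62% had the same sign, and over the 1611 genes at an unadjusted p under 0.05 of the direct comparison 79.3% did. That comparison itself had 0 calls (0%) with limma and with edgeR, 1583 genes (8.42%) at an unadjusted p under 0.05, and 106 calls with DESeq2. Its control group holds 2 libraries. The log2 difference there was 4.10 ± 0.92 for ENSORLG00000000970 (adjusted p = 0.214) and 1.77 ± 0.53 for ENSORLG00000007279 (adjusted p = 0.397). For rtn4rl2b it was 1.22 ± 0.63 (adjusted p = 0.634). Relative to the control lineage without PFOS, 9 of the 11 genes were higher in the BPA lineage and 10 were lower in the exposed control lineage. Those comparisons share libraries with the direct one.

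Some genes just missed the threshold in the direct comparison. The gene nqo1 encodes a quinone reductase and is a classical target of the oxidative-stress factor NRF2. It had 58.2, 28.2 and 89.5 normalized reads in the BPA lineage without PFOS and 183, 549 and 697 in the exposed control lineage. The groups did not overlap, and the log2 difference was -2.94 ± 0.54 (adjusted p = 0.061). The control lineage without PFOS, at 42.02, 63.1 and 67.6, overlapped the BPA lineage without PFOS. In the library left out of the fit, nqo1 had 390300 normalized reads and the egg-coat gene zp3f.1 had 205000. In the exposed control libraries zp3f.1 had 214, 2249 and 596. Whether egg transcripts had a part in the nqo1 difference was not tested. The adjusted p of nqo1 was 0.0247 to 0.281 when a library was left out. Of 29 antioxidant genes tested, 0 were called by limma, 2 were lower and 0 higher at an unadjusted p under 0.05, and 23 had an interval inside 1 log2 unit. Over all genes, 0.0585% were called, 8.57% had such a p and 49.4% had such an interval. The gene rassf6, of the Ras-association domain family and chosen after its values were seen, had 519, 1460 and 239 normalized reads against 37.2, 19.8 and 5.90, a log2 difference of 5.01 ± 0.86 (adjusted p = 0.0508).

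Germ-cell gene lists differed in how tightly the direct comparison bounded them. All 14 genes tested of the piRNA pathway, which silences transposons in germ cells, had an interval inside 1 log2 unit, beside 49.4% of all genes. So did 19 of 23 genes of meiotic prophase, 29 of 38 of the spermatid and flagellum and 63 of 75 of the cell cycle and replication. Against the shared reference, 78.6% of the piRNA list was bounded in the BPA lineage and 71.4% in the exposed control lineage. These shares were 60.9% and 43.5% for meiotic prophase, 55.3% and 63.2% for the spermatid list and 69.3% and 60% for the cell cycle. Members of these lists were thus often bounded in those comparisons too, though the shares were lower. The share of all genes bounded there is not given here, so a drop common to all genes cannot be told apart. Of 13 spermatogonial genes tested, 2 were bounded in the direct comparison. The receptor tyrosine kinase gene ret, which receives the signal of glial cell line-derived neurotrophic factor in spermatogonia of mammals, had 483, 515 and 132 normalized reads in the BPA lineage without PFOS and 3.92, 66.4 and 46.5 in the exposed control lineage. Its groups did not overlap, and the log2 difference was 3.68 ± 1.15 (adjusted p = 0.403). No member of these 5 lists was called by limma in the direct comparison (background 0.0585%). Over all genes, 8.57% had an unadjusted p under 0.05. At an unadjusted p under 0.05, the piRNA list had 2 lower members, meiotic prophase 0, the spermatid list 2 higher and 3 lower, the cell cycle 5 lower and spermatogonia 1 higher. By library, 18 of the 75 cell-cycle genes were lower in the BPA lineage without PFOS with no overlap and 1 was higher, beside 7.05% and 7.9% of all genes. For spermatogonia these counts were 0 and 2 of 13. The medians of the first 4 lists lay slightly below 0, at -0.18, -0.26, -0.14 and -0.16, and stayed below 0 under TMM scaling and with each library left out. Negative estimates were 12 of 14, 22 of 23, 29 of 38 and 60 of 75. For spermatogonia the median was -0.15, with 8 negative and 5 positive estimates, so ret went against most of its list. That median ran from -0.175 to 0.03 when a library was left out. Summed normalized reads of the spermatogonial list were 33117 to 52869 in the BPA lineage without PFOS and 46139 to 59936 in the exposed control lineage. Relative to the shared reference, cell-cycle genes had 5 members called higher and 4 lower in the BPA lineage, and 15 higher and 3 lower in the exposed control lineage (medians 0.14 and 0.34). Over all genes the shares were 4.29% and 5.97% in the first and 6.15% and 6.67% in the second.

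Single members of these lists show the size of the remaining differences. The piRNA-pathway co-chaperone fkbp6 had 2574, 2864 and 2668 normalized reads in the BPA lineage without PFOS and 3186, 4046 and 4009 in the exposed control lineage. Its groups did not overlap, and the log2 difference was -0.46 with an interval of -0.80 to -0.13 (adjusted p = 0.442). The meiotic cohesin gene rec8b had 3318, 3024 and 2996 against 3204, 4320 and 4975, a log2 difference of -0.40 with an interval of -0.85 to 0.05. The cell-cycle transcription factor e2f1 had 1785, 1590 and 1136 against 2350, 2261 and 3046 (log2 difference -0.78 ± 0.31, adjusted p = 0.503). In the control lineage without PFOS e2f1 had 1185, 966 and 1509, and its difference from there was 1.08 ± 0.31 in the exposed control lineage (adjusted p = 0.0343) and 0.30 ± 0.31 in the BPA lineage (adjusted p = 0.548). A member that stood farther apart was the flagellar tektin tekt4, with 283, 41.3 and 25.6 normalized reads against 432, 441 and 369 (log2 difference -2.60 ± 0.89, adjusted p = 0.448). The gene rfx4, which had the smallest p of the spermatid list, went the other way. It had 335, 439 and 363 normalized reads against 216, 165 and 172, with no overlap (log2 difference 1.04 ± 0.26, adjusted p = 0.239).

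Genes of metabolism, protein synthesis, stress responses and chromatin were mostly bounded as well, beside 49.4% of all genes. Against the shared reference, 68.8% of ribosomal protein genes were bounded in the BPA lineage and 84.4% in the exposed control lineage. For oxidative phosphorylation these shares were 61.3% and 66.1%. These lists were thus often bounded in those comparisons too, for which the share of all genes bounded is not given here. The counts of the direct comparison follow. Intervals lay inside 1 log2 unit for 63 of 64 ribosomal protein genes, 57 of 62 genes of oxidative phosphorylation, 30 of 34 of the unfolded protein and heat shock response and 25 of 34 of cholesterol synthesis. For DNA methylation and chromatin genes the count was 51 of 74, and for p53 and apoptosis 27 of 41. None of these 6 lists had a member called by limma in the direct comparison, beside 0.0585% of all genes. At that share, lists of this size would hold few calls or none. Over all genes, 8.57% had an unadjusted p under 0.05. At an unadjusted p under 0.05 the counts were 0 for ribosomal proteins, 2 lower for oxidative phosphorylation, 1 higher for the heat shock response, 2 higher for cholesterol synthesis, 1 higher and 2 lower for chromatin, and 1 higher and 3 lower for p53 and apoptosis. The cholesterol synthesis enzyme cyp51 had 529, 667 and 468 normalized reads in the BPA lineage without PFOS and 239, 236 and 412 in the exposed control lineage, a log2 difference of 0.94 ± 0.30 (adjusted p = 0.403). Relative to the control lineage without PFOS, at 185, 268 and 245, cyp51 was higher in the BPA lineage (log2 difference 1.25 ± 0.30, adjusted p = 0.0185). A further list, fatty acid oxidation and PPAR targets, had 31 of 51 genes bounded and 0 called in the direct comparison. At an unadjusted p under 0.05 it had 5 higher members and 2 lower.

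**Figure D4:**
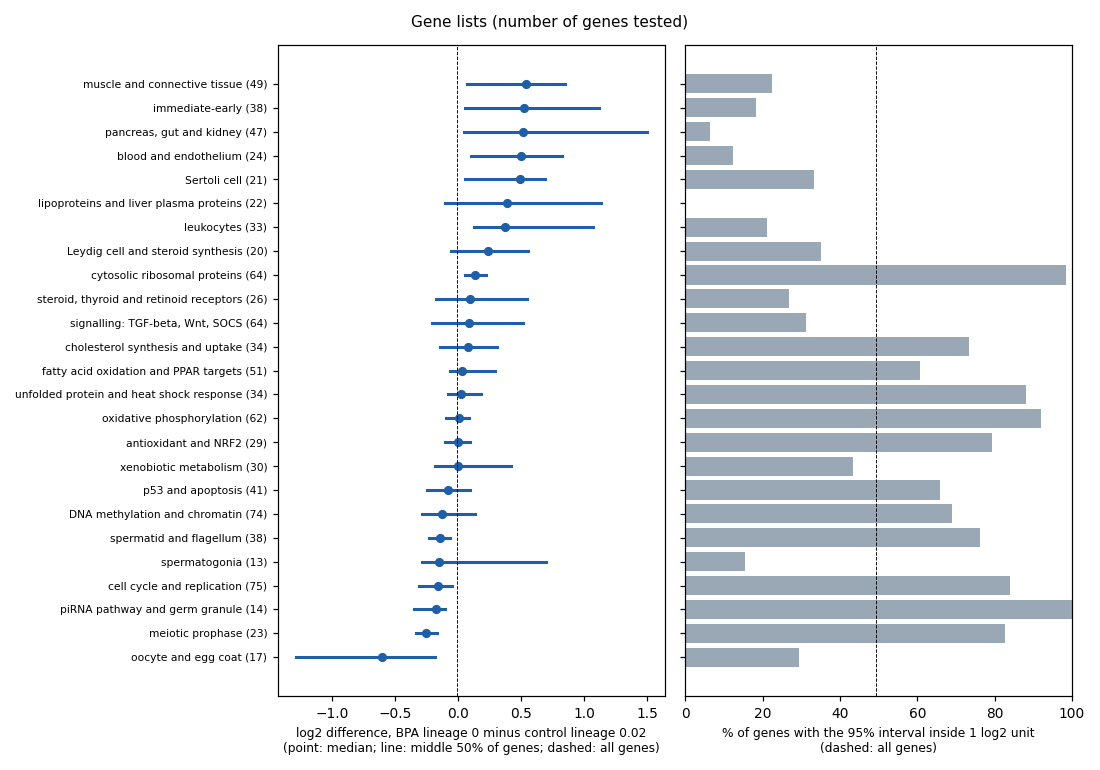
Left, the median and the middle 50% of log2 differences between the BPA lineage at 0 mg/L and the control lineage at 0.02 mg/L for each gene list. Right, the percentage of each list whose 95% interval lies inside 1 log2 unit. The piRNA and ribosomal protein lists reach farthest right, and lists of muscle, blood, gut and immune cells lie above 0 on the left with few bounded members.

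Genes of somatic testis cells were less tightly bounded. Over all genes, 49.4% were bounded, 0.0585% were called and 8.57% had an unadjusted p under 0.05. Against the shared reference, 33.3% of Sertoli-cell genes were bounded in the BPA lineage and 14.3% in the exposed control lineage, so the list had loose bounds there too. The share of all genes bounded in those comparisons is not given here. Among Sertoli-cell genes, 7 of 21 had an interval inside 1 log2 unit, 0 were called and 3 were higher at an unadjusted p under 0.05, with a median log2 difference of 0.49 that ran from 0.218 to 0.595 when a library was left out. Against the shared reference the list had 1 member of 21 called lower in the BPA lineage, beside 5.97% of all genes, and 5 lower in the exposed control lineage, beside 6.67%. The receptor of follicle-stimulating hormone, fshr, which was chosen after its values were seen, had 2438, 1905 and 3655 normalized reads in the BPA lineage without PFOS and 1249, 1911 and 1288 in the exposed control lineage (adjusted p = 0.524). The groups overlapped narrowly, at 1905 and 1911. Among Leydig-cell and steroid synthesis genes, 7 of 20 were bounded, 0 were called and 2 were higher at an unadjusted p under 0.05. The median log2 difference of the list was 0.24, with 13 positive estimates and 7 negative, the lowest at -0.96. The 2 members with the smallest p follow. The androgen-making enzyme hsd17b3 had 968, 866 and 1371 normalized reads against 233, 316 and 108, with no overlap and a log2 difference of 2.39 ± 0.68 (adjusted p = 0.34). Its level in the control lineage without PFOS, at 461, 497 and 467, lay between them. The enzyme hsd11b2, which inactivates cortisol and in fish also makes 11-ketotestosterone, had 803, 772 and 633 against 408, 366 and 252 (log2 difference 1.13 ± 0.45, adjusted p = 0.505). For hsd11b2 the control lineage without PFOS, at 394, 395 and 284, was level with the exposed control lineage (log2 difference -0.08, interval -1.02 to 0.86).

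Markers of other tissues and cells moved beside these differences, and their part in the results was not tested. Of 47 gut, pancreas and kidney genes, 13 were higher in the BPA lineage without PFOS with no overlap and 0 lower (7.9% and 7.05% of all genes), while 0 were called and 6 were higher at an unadjusted p under 0.05. The mean log2 level of that list, relative to the 17 libraries, was 0.05 to 0.24 in the BPA lineage without PFOS, -0.70 to -0.52 in the exposed control lineage and 0.70 to 2.44 in the control lineage without PFOS. Its summed normalized reads overlapped in the groups compared directly, at 5009 to 7015 and 4569 to 6242, and were 10903 to 57558 in the control lineage without PFOS. Up to 6 of its 50 genes in the table were at 0 in an exposed control library and up to 3 in a BPA lineage library. The calcium-binding gene S100P had 90.2, 19.7 and 3.76 normalized reads in the BPA lineage without PFOS and 0, 0.706 and 0 in the exposed control lineage. In the control lineage without PFOS it had 1371, 52.6 and 1094.

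Several blood and immune genes were also higher in each BPA lineage library without PFOS, with 0 calls by limma. At an unadjusted p under 0.05, 5 leukocyte genes and 3 of blood and endothelium were higher and 0 lower. Of 33 leukocyte genes 10 were higher with no overlap and 2 lower, beside 7.9% and 7.05% of all genes, and the summed normalized reads of the list ran from 10266 to 12786 against 8035 to 11874. The complement gene c3-2 had 157, 128 and 293 normalized reads in the BPA lineage without PFOS and 40.2, 36.0 and 84.8 in the exposed control lineage (log2 difference 1.84 ± 0.45, adjusted p = 0.221). Of 24 genes of blood and endothelium, 6 were higher with no overlap and 0 lower, beside the same shares. The globin gene hbba1 had 204, 826 and 120 normalized reads against 2.94, 3.53 and 6.64, a log2 difference of 5.73 ± 1.97 (adjusted p = 0.448), and 47.8, 169 and 75.01 in the control lineage without PFOS. Transferrin, tfa, an iron carrier of plasma that Sertoli cells make in mammals, had 2331, 3897 and 2318 against 591, 700 and 1093 (log2 difference 1.84 ± 0.44, adjusted p = 0.221). It had the smallest p of 22 lipoprotein and liver plasma protein genes tested. Of these, 15 estimates were positive and 7 negative, and 5 were higher with no overlap and 1 lower, beside 7.9% and 7.05% of all genes.

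Oocyte and egg-coat genes moved the other way. Of 17 tested, 15 had negative estimates, 0 were called and 6 were lower at an unadjusted p under 0.05, with 3 lower in the BPA lineage without PFOS with no overlap and 0 higher, beside 7.05% and 7.9% of all genes. The list median was -0.60 and ran from -1.18 to -0.37 when a library was left out. The egg-coat gene zp3f.1 had 107, 93.0 and 100.1 normalized reads in the BPA lineage without PFOS and 214, 2249 and 596 in the exposed control lineage, a log2 difference of -2.71 (adjusted p = 0.373). The mean log2 level of the list was -0.26, 1.73 and 0.96 in the exposed control libraries, so 1 of the 3 lay inside the BPA lineage range of -0.34 to 0.12. Summed normalized reads of the list were 11945 to 13651 and 13282 to 20434.

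For a last set of genes, the groups compared overlapped each other and both stood apart from the control lineage without PFOS. How closely the groups were bounded to each other varied among these genes. They come from the gene lists or from earlier results of these data, and were chosen after their values were seen. For each, both groups share the reference, so a reference that happened to lie high or low would move both differences together. Anti-Müllerian hormone, amh (ENSORLG00000015951), a Sertoli-cell hormone that restrains germ-cell proliferation in fish, had 7748, 7024 and 8386 normalized reads in the BPA lineage without PFOS and 9279, 13890 and 5822 in the exposed control lineage. The control lineage without PFOS had 28350, 21370 and 16750, above all 6. The direct log2 difference was -0.24 with an interval of -0.78 to 0.30. Relative to the reference it was -1.49 ± 0.26 in the BPA lineage (adjusted p = 0.00481) and -1.25 ± 0.26 in the exposed control lineage (adjusted p = 0.012). A second gene with the symbol amh (ENSORLG00000005044) had no such pattern, at 1293 to 1427, 892 to 1880 and 1278 to 1734 in the 3 groups.

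The cilia and flagella gene cfap43 had 706, 626 and 1106 normalized reads in the BPA lineage without PFOS, 871, 928 and 561 in the exposed control lineage and 2932, 1941 and 1869 in the control lineage without PFOS. Its direct difference was 0.04 with an interval of -0.51 to 0.58. The retinoid receptor gene rxrbb had 366, 325 and 564 against 487, 811 and 300, with 1499, 1224 and 1363 in the reference (direct log2 difference -0.27, interval -0.90 to 0.35). The cytokinesis gene racgap1 was lower than the reference by a log2 difference of -2.82 ± 0.35 in the BPA lineage (adjusted p = 0.00093) and -2.05 ± 0.35 in the exposed control lineage (adjusted p = 0.00658). Between the groups the log2 difference was -0.77 with an interval of -1.50 to -0.03 (adjusted p = 0.557), and the libraries overlapped. Its libraries held 563, 299 and 770 normalized reads, then 922, 1336 and 518, and 3935, 4238 and 2743 in the reference. The interval of the signalling suppressor socs6, -1.87 to 0.39, was too wide to bound the groups within 2-fold. The chromatin-remodelling subunit actl6a had an interval of -1.11 to 0.33, and uhrf1, which carries DNA methylation through replication, -0.95 to 0.07.

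Genes that stood above the reference in both groups included the histone deacetylase HDAC2, with 4513, 4646 and 2753 normalized reads in the BPA lineage without PFOS and 3949, 3477 and 5940 in the exposed control lineage. The reference had 1669, 2249 and 1979, and the direct log2 difference was -0.17 with an interval of -0.64 to 0.31. The Wnt receptor fzd3a had 1602, 1947 and 1291 against 1500, 1201 and 1927, with 499, 727 and 722 in the reference (direct log2 difference 0.07, interval -0.40 to 0.54). The Wnt effector tcf7l2 had a direct difference of -0.13 with an interval of -0.60 to 0.34, and differences from the reference of 1.12 ± 0.22 (adjusted p = 0.00826) and 1.25 ± 0.22 (adjusted p = 0.00821). In the BPA lineage at 0.02 mg/L, which had both exposures, amh (ENSORLG00000015951) stood at 23420, 17150 and 21160 normalized reads, within the range of the control lineage without PFOS. Likewise rxrbb, at 1107, 1355 and 1279, reached into that range, and HDAC2, at 2845, 2811 and 3356, stayed above it.

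**Figure D5:**
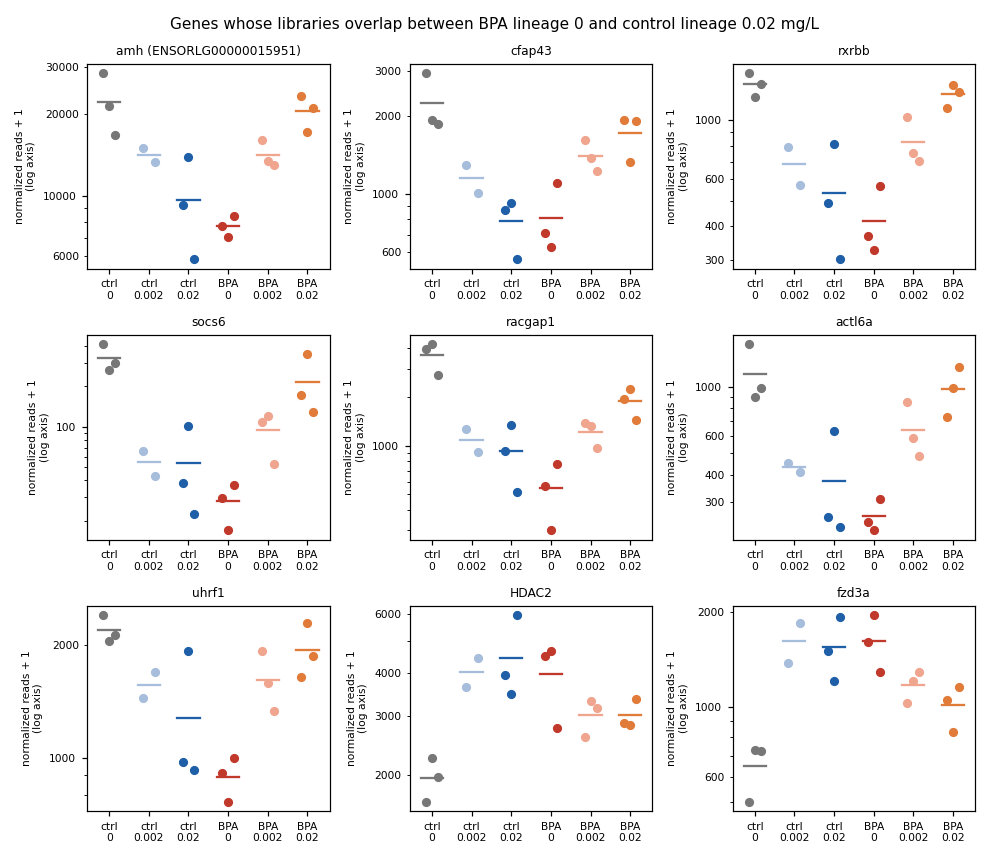
Normalized reads plus 1 (log axis) per library of 9 genes whose levels in the BPA lineage at 0 mg/L (red) and the control lineage at 0.02 mg/L (dark blue) overlap, with the control lineage at 0 mg/L in grey. Horizontal lines are group means, PFOS is in mg/L, and 1 library of the control lineage at 0.002 mg/L was left out. Red and dark blue lie on one side of grey in each panel.

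Immediate-early genes, transcription factors and regulators that cells switch on within minutes of a stimulus, varied widely within groups. The transcription factor c-fos had 4751, 1824 and 165 normalized reads in the BPA lineage without PFOS and 1108, 1558 and 1139 in the exposed control lineage, and 35.0, 79.3 and 82.5 in the control lineage without PFOS. All 6 libraries lay above the reference, but the interval of the direct difference ran from -2.81 to 2.502. Of 38 genes of the list, 31 had positive estimates and 7 negative. The estimate of c-fos, -0.15 ± 1.23, was among the negative ones, but its sign was not settled. The 2 members with the smallest p, fosl2 and ccn2a, had log2 differences of 1.36 ± 0.40 and 1.39 ± 0.42 (adjusted p = 0.351 and 0.359). The list median was 0.527 and ran from 0.245 to 0.891 when a library was left out. The mean log2 level of the list was -0.123 to 0.815 in the BPA lineage without PFOS. It was -0.461 to -0.138 in the exposed control lineage, so the ranges nearly met. Summed normalized reads overlapped, at 13390 to 33801 and 15735 to 18197. In the direct comparison 0 members were called, and 7 were higher and 1 lower at an unadjusted p under 0.05. By library, 6 were higher in the BPA lineage without PFOS with no overlap and 1 lower (7.9% and 7.05% of all genes). Bounds within 1 log2 unit held for 7 (49.4% of all genes). The antiproliferative gene btg1 had 342, 168 and 237 normalized reads against 115, 203 and 76.0, with 817, 582 and 1408 in the reference (direct log2 difference 0.98, interval 0.05 to 1.90, adjusted p = 0.551).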

How the data were processed

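The data were 18 medaka testis RNA-seq libraries, made from total RNA with the NEBNext Ultra II RNA kit. The authors deposited a signal for each gene, its read count scaled by the size factor of the library. The submitters' processing notes name these tools, without their roles: DESeq2 1.34.0, STAR 2.7.7a and fastp 0.23.2. Build, read counter and strand setting: not given in the sources used here. Overlapping, antisense and closely related genes therefore have uncertain values. Within a tolerance of 0.01 reads, 100% of the values in each library were whole multiples of 1 step, which gave back whole reads.

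Genes with a mean of at least 10 over the 18 libraries were tested with limma 3.58.1 (R 4.3.3) on log2(value + 1), with 6 group means over 17 libraries, an intensity trend and robust moderation. Control lineage PFOS 0.002 replicate 2 was left out of this fit but not of the filter or the size factors. Tests were two-sided, with Benjamini-Hochberg adjustment over all genes tested in each of 4 comparisons and a threshold of 0.05. A fold change on this scale understates the change of genes with low values. Intervals are unadjusted 95% intervals. Values are per library, and ± gives the SE.

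The groups compared, the 25 gene lists and the rule for naming genes were chosen with earlier results of these data known. Eligible for naming were called genes with a symbol and a mean of at least 50 (up to 12 each way). So were called list members (up to 6), or else the 2 members with the smallest p. A further 12 symbols were known from those results. Only some of these list members and known symbols are described above, and the rule did not fix which. Others were chosen after their values were seen: smtna, lmod1b, myh11a, acta2, myl9a, col12a1a, col1a2, col5a2a, rassf6, socs6, racgap1, actl6a, uhrf1, fzd3a, tcf7l2, ddx4, gsdf, cdh17, slc12a3, fshr and zp3f.2. Alternatives were TMM scaling, no filter, a pseudocount of 5, all 18 libraries, the groups compared alone, a replicate block, a fold threshold of 2, edgeR 4.0.16 and DESeq2 1.42.0 on whole reads, and each replicate left out. The procedure was tested on simulated data.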

Additional observations from a re-analysis of the deposited data

How the results depend on the processing

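The count of 11 genes called between the BPA lineage without PFOS and the control lineage at 0.02 mg/L was 6 under TMM scaling, 3 with all 18 libraries, 23 from the groups compared alone, 2 with edgeR and 187 with DESeq2. It was 3 to 9 with 1 library left out. With the BPA lineage without PFOS against the control lineage without PFOS, the count of 1927 was 4 with 18 libraries, 3321 with DESeq2 and 180 to 2776 with 1 library left out. For the control lineage at 0.02 against 0 mg/L, the count of 2409 was 13 with 18 libraries, 3801 with DESeq2, 1469 with a fold threshold of 2 and 77 to 3114 with 1 library left out. Without both replicate 1 and replicate 3 of the unexposed controls, an alternative added after seeing the data, these 2 counts were 0 (2431 at an unadjusted p under 0.05) and 12. Between the lineages at 0.002 mg/L the count of 0 was 29 from the groups compared alone and 106 with DESeq2. The 9285 genes bounded within 1 log2 unit were 5816 with 18 libraries and 7912 to 8450 with 1 library left out. The cause of these changes was not tested.

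The replicate numbers gave no sign of pairing the libraries: deviations from the group means correlated at -0.0882, -0.199 and -0.155 in same-numbered libraries of the groups compared directly. Deviations from a mean of 3 libraries are tied to each other, so this check cannot exclude a pairing. With the replicate number as a block 6 genes were called, of which 4 were among the 11.

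Log2 differences near 0 changed sign. With edgeR and DESeq2 they were 0.794 and 0.801 for c-fos, and -0.022 and -0.011 for amh (ENSORLG00000005044). With 1 library left out, they ran from -1.19 to 1.23 for c-fos, from -0.226 to 0.312 for that amh gene and from -0.56 to 0.067 for amh (ENSORLG00000015951). The ranges were -0.208 to 0.202 for cfap43, -0.627 to 0.088 for rxrbb, -0.326 to 0.078 for HDAC2, -0.65 to 0.07 for actl6a, -0.336 to 0.072 for tcf7l2, -0.096 to 0.245 for fzd3a and -0.03 to 0.322 for gsdf. Over the genes and alternatives run, 1154 values kept direction and side of the threshold, 78 lost the call, 23 gained it and 19 changed sign.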
